A study of Mus musculus with 15 samples.

Results

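The 34 genes described here are Myc and 33 genes whose products build ribosomes in the nucleolus. They were chosen by name, with earlier results of these data known. Each is read through the probe set that the platform annotation maps to its symbol. Where a gene has several, the one with the highest mean is taken. All 34 were measured, out of 18193 genes on the array. Their levels are deposited log2 values from 15 Affymetrix arrays of mammospheres, which are spheres grown in suspension from dissociated tumour cells. The tumours were primary mammary gland tumours of FVB/N mice of the genotype WAPCre-DNbcatn;HGF, which every group shared. In such animals Cre is driven by the Wap promoter, which is active in milk-producing mammary epithelium. Spheres were grown for 7 days, then treated for 24 h: DMSO was the vehicle, and the agents were PHA, ICG or both (PHA+ICG). The study set inhibitors of the Wnt and MET pathways, singly and together, against vehicle. Dose is not given in the labels. There were 5 groups of 3 arrays in a pair of sets with different title codes. The first set held DMSO, PHA and ICG, and the second held its own DMSO arrays and PHA+ICG. Each treatment is compared with the DMSO of its own set. The labels do not say whether arrays of a group came from separate cultures or animals, so the p-values reflect how far these arrays vary among themselves, a variation that may be technical.

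Myc is a transcription factor that pairs with Max and binds E-box sequences, and genes for ribosome assembly are among its best known targets. In the nucleolus RNA polymerase I copies the ribosomal DNA. Small nucleolar ribonucleoproteins (snoRNPs) then modify the transcript, those of the box C/D class by ribose methylation and those of the box H/ACA class by pseudouridylation, and assembly factors fold and trim it into the small and large subunits. Myc is also a textbook target gene of Wnt and β-catenin signalling, and growth factor receptors such as MET raise Myc through ERK.

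Before the values, the sequence upstream of 6 members is shown, chosen after the values were seen. Nop10 and Nolc1 changed with both single inhibitors, and Dkc1 responded differently to PHA and PHA+ICG. Gar1 and Nop2 changed with ICG, and Rrn3 stood highest with PHA+ICG. The ICG calls of Gar1 and Nop2 were lost in 7 and 9 of the 14 alternatives tried. The choice leaves out other members called with ICG, such as Ubtf, Ncl and Ddx21, whose windows hold neither motif marked below. RefSeq promoter windows, 250 bases before to 50 after the annotated start on GRCm38.p6, matched 29 of the 34 members; Myc, Npm1, Fbl, Bop1 and Rrp12 had none. Each sequence is the last 120 bases before the start (250 for Rrn3), 5′ to 3′ along the gene. The longer stretch for Rrn3 takes in an E-box that starts at -215. Capitals mark the E-box CACGTG, or the ETS-type motif CCGGAAG on either strand (CTTCCGG on the other). A motif that runs past the start is left in lower case, as is an ETS-type motif of Rrn3 that begins at -5. The stretches are Nop10 at chr2:112261806-112261925 (plus strand), Nolc1 at chr19:46075727-46075846 (plus), Dkc1 at chrX:75095734-75095853 (plus), Gar1 at chr3:129831397-129831516 (minus), Rrn3 at chr16:13780449-13780698 (plus) and Nop2 at chr6:125131763-125131882 (plus).
Nop10: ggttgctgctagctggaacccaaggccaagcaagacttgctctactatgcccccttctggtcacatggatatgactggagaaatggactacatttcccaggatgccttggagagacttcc
Nolc1: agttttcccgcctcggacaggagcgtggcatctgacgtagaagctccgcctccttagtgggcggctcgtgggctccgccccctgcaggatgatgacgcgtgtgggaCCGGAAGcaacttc
Dkc1: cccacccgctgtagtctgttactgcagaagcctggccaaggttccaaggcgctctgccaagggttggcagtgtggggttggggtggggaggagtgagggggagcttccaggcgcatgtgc
Gar1: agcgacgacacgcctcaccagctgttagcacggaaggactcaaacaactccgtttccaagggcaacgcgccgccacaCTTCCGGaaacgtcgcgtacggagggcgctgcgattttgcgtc
Rrn3: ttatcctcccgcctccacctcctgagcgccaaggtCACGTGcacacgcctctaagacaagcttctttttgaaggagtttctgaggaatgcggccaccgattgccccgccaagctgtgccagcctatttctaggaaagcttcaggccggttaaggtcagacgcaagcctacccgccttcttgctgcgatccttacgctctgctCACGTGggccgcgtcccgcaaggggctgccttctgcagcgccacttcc
Nop2: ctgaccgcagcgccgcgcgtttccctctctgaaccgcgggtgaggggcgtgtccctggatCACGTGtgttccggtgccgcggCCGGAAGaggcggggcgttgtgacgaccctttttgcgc

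The E-box, the same on both strands, was in the windows of 6 of the 29 members (20.7%), namely Nop2, Utp20, Pes1, Mybbp1a, Rrn3 and Wdr43, against 8.09% of 27025 genes with such a window. Rrn3 held it at 2 places, starting at -215 and -48 from the start site. The ETS-type motif was in the windows of 8 members (27.6%) against 9.93% of genes. These were Gar1, Noc2l, Nop2, Nhp2, Rrn3, Polr1c, Wdr74 and Nolc1. The TCF/LEF motif CTTTGAT, whose other strand reads ATCAAAG, was in 0 of 29 against 4.29%. A letter match is no evidence that a factor binds there, and these shares describe the members without a test. The 27025 genes were not limited to the 18193 on the array or to a mean log2 level of at least 6. All members reach that level.

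The arrays of the second set differed more among themselves. The median residual standard deviation of a gene was 0.24 there and 0.11 in the first set (log2 units), 2.22 times as large, so each set was fitted alone and comparisons across the sets were weighted. Over the 34 members, PHA+ICG replicate 2 lay 0.44 (standard deviation of the differences) from the mean of its group partners, the farthest of the 15 arrays, while the 9 arrays of the first set lay between 0.07 and 0.10. The epithelial markers Epcam and Krt14 had mean levels of 9.42 and 11.07 in DMSO of the first set. Fibroblast and leukocyte markers were present as well: the log2 of the summed linear level of 12 fibroblast markers was 15.34 to 15.69 in DMSO of the first set and 16.73 to 16.91 in DMSO of the second. In such bulk RNA, fewer cells of a type and less RNA per cell cannot be told apart.

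With PHA the members were mostly slightly lower than with DMSO. Of the 34, 26 had a fold change below 0, and the median log2 fold change was -0.10, against 0.02 over all genes. At an adjusted p under 0.05 (limma, Benjamini-Hochberg over 18193 genes), 5 fell, namely Myc, Nolc1, Dkc1, Noc2l and Fbl, and 1 rose, Nop10. That is 17.6% of the members, beside 10.2% of all genes called in this comparison, 3.14% higher and 7.07% lower. All 34 members have a mean level of at least 6, and among the 11126 genes at or above that mean the shares were alike, 20.6% of the members (7 of 34) and 20.7% of the genes. The 3 PHA arrays lay below all 3 DMSO arrays for 15 members and above them for 1, beside 16.2% and 15.4% of all genes. Removing single arrays lowered these counts: the members that fell numbered 2 without DMSO replicate 1 or either of PHA replicates 1 and 2, 3 without DMSO replicate 2 or PHA replicate 3, and Nop10 was not called without DMSO replicate 2 or 3 or PHA replicate 2. Quantile normalization, a different scaling, moved the split of all called genes from 572 higher and 1286 lower to 836 and 1093, and the median of the members to -0.06.

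ICG moved the members both ways. Of the 34, 6 rose (Nop10, Myc, Ddx21, Ubtf, Rrp9 and Gar1) and 3 fell (Nolc1, Ncl and Nop2), with a median log2 fold change of 0.01 against 0.03 over all genes. The share called was 26.5%, close to the background of 26.9% of all genes, of which 11.9% were called higher and 15% lower. Among genes with a mean of at least 6 it was 38.2% of the members against 45.5% of the genes. The ICG arrays were apart from DMSO on the high side for 10 members and on the low side for 8, beside 20.2% and 20.4% of all genes. Without DMSO replicate 2, DMSO replicate 3 or ICG replicate 2, the members called higher numbered 3.

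With PHA+ICG no member passed the test (limma on the 6 arrays of the second set), while 2.02% of all genes did. At an unadjusted p under 0.05 there were 7 members, each of them higher than DMSO: Rrn3, Ddx21, Nop10, Nop16, Rrp9, Gnl3 and Ubtf. That is 20.6% of the members, beside 13.3% of all genes with such a p, and with a mean of at least 6 it was 14.7% beside 17.9%. The median was 0.14 against 0.00 over all genes, and 25 of 34 fold changes were above 0. All 3 treated arrays were above all 3 DMSO arrays for 7 members (Rrn3, Nop10, Nop16, Rrp9, Gnl3, Dkc1 and Ubtf) and below them for 0, beside 7.33% and 11% of all genes. Same-numbered arrays of this set correlated positively, but so did replicates 2 and 3 across their numbers (0.24 and 0.35). With the replicate number as a block Rrn3 was called (adjusted p = 0.0445) and the genes called rose from 368 to 1442. These blocked results rest on a pairing that the labels do not give. Without PHA+ICG replicate 2 no member was called, and the median was 0.22, while without DMSO replicate 1 of this set it was 0.06.

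**Figure D1:**
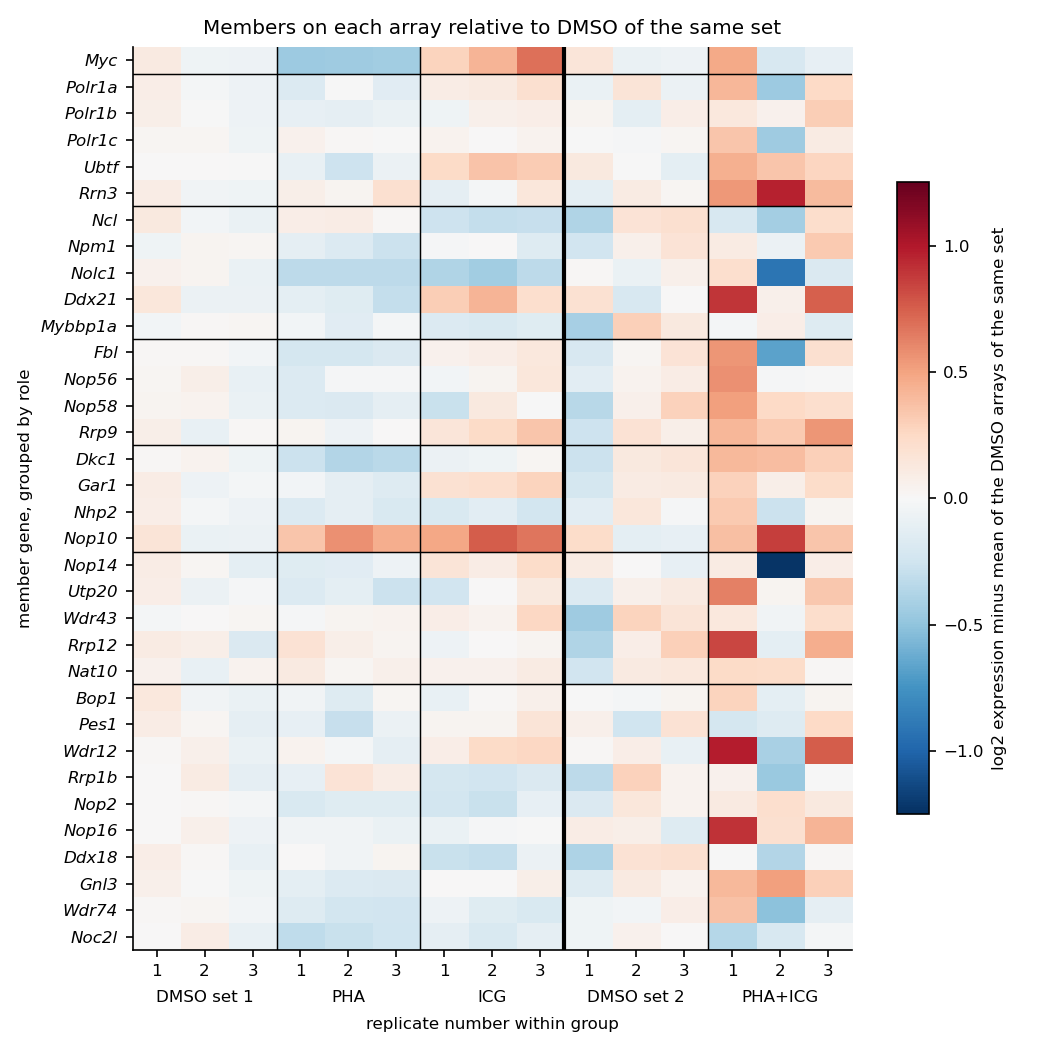
Difference of each member from the mean of its own set's DMSO arrays (log2, colour), with 1 row per gene ordered by role and 1 column per array. The PHA columns are mostly below 0, the ICG columns hold both signs, and PHA+ICG replicate 2 departs from replicates 1 and 3 of its group.

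Myc is read by 1 probe set. Its level was 9.89, 9.73 and 9.72 in DMSO of the first set, 9.32, 9.34 and 9.34 with PHA and 10.05, 10.20 and 10.47 with ICG. The 3 groups did not overlap, PHA lying lowest and ICG highest. Myc fell with PHA, by 0.44 ± 0.10 (SE) on the log2 scale, to 0.736 of the DMSO level (adjusted p = 0.0199). With ICG it rose by 0.46 ± 0.10, to 1.38 times DMSO (adjusted p = 0.00648). The fall with PHA lost its call without DMSO replicate 1 or any one of the PHA arrays, with adjusted p from 0.0533 to 0.0649, while its size stayed between -0.47 and -0.39. The rise with ICG kept its call without any one array (adjusted p up to 0.0272). In the second set Myc read 10.29, 10.05 and 10.08 with DMSO and 10.61, 9.94 and 10.04 with PHA+ICG. These groups overlapped, and the difference was 0.06 with a 95% interval from -0.42 to 0.54. The effect of PHA+ICG minus the effect of PHA was 0.50 ± 0.26, and minus the effect of ICG it was -0.40 ± 0.26. Neither was called (limma on all 15 arrays, adjusted p = 0.43 and 0.88). Max and the other proteins that pair with Myc or oppose it form a network. Of 16 genes of this network, 1 fell with PHA, the Max-binding repressor Mxd1 (-0.46, adjusted p = 0.00296). With ICG 3 rose and 2 fell, among them Mxd4 (-1.05, adjusted p = 0.000104), another Max-binding repressor, and Mlx (-0.35), a partner of Mxd proteins. With PHA+ICG 1 fell, Mxi1 (-1.04, adjusted p = 0.0411), a further repressor of that family. The shares called were 6.25%, 31.2% and 6.25% with PHA, ICG and PHA+ICG, beside 10.2%, 26.9% and 2.02% of all genes.

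**Figure D2:**
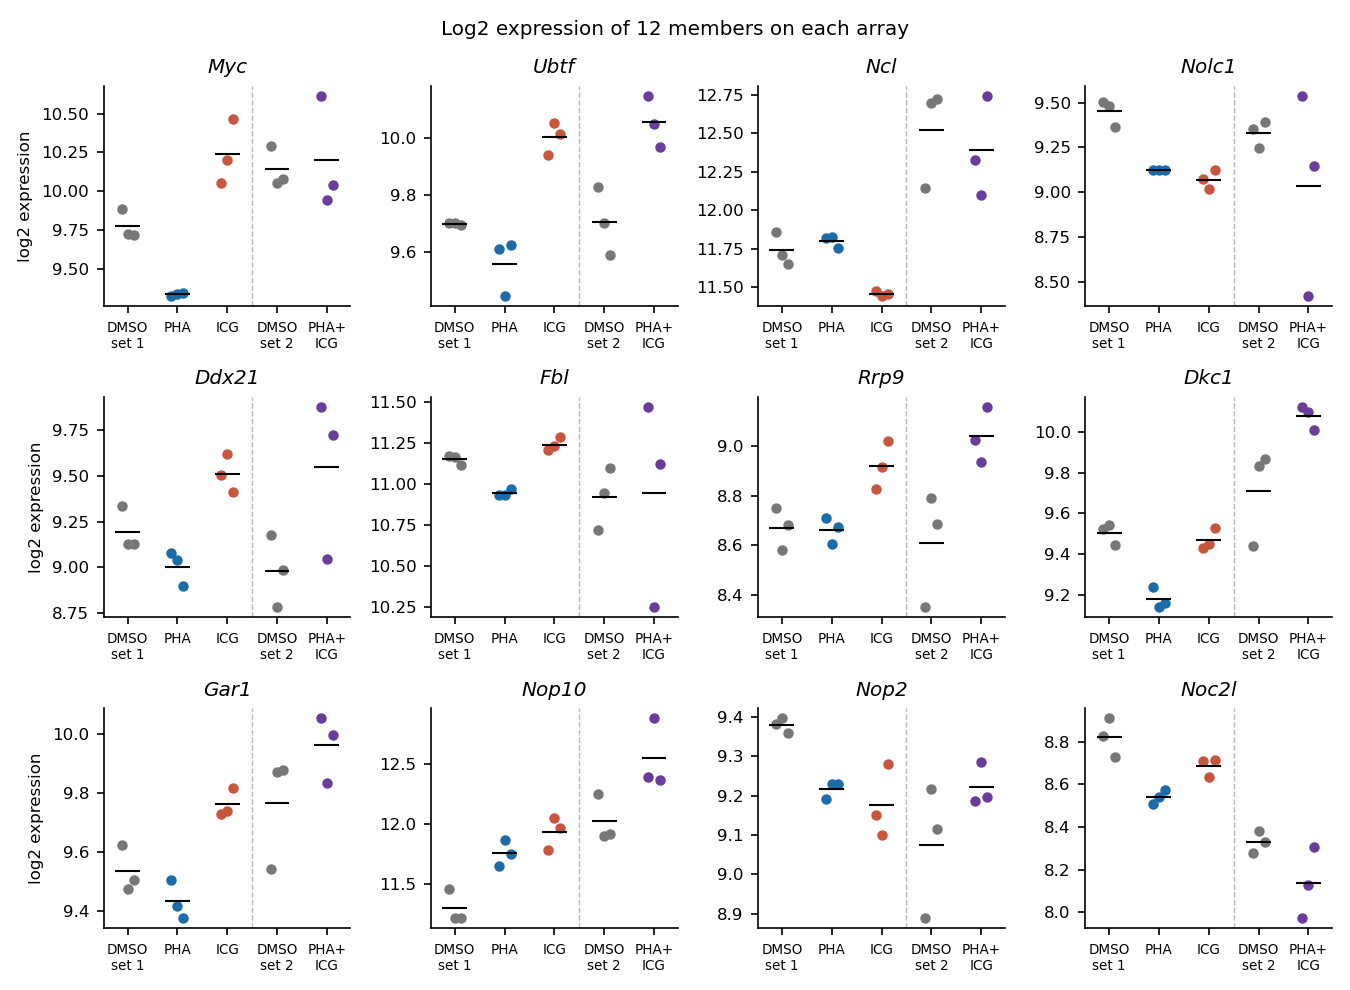
Deposited log2 level of Myc and the other members called in a single-inhibitor comparison, 1 point per array and a bar at each group mean, with DMSO, PHA and ICG of the first set and DMSO and PHA+ICG of the second. For Myc the 3 groups of the first set are apart, with PHA lowest at 9.32 to 9.34 and ICG highest at 10.05 to 10.47.

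Among the 5 members of the RNA polymerase I machinery, Ubtf was the one that passed the test against DMSO when each set was fitted alone with no block. Ubtf, which binds the ribosomal DNA promoter and opens it for the polymerase, read 9.70, 9.70 and 9.69 with DMSO, 9.61, 9.44 and 9.62 with PHA and 9.94, 10.05 and 10.02 with ICG. All ICG arrays were above DMSO, and all PHA arrays below it. It rose with ICG by 0.30 ± 0.07 (adjusted p = 0.00726), while the difference with PHA, -0.14, was not called (adjusted p = 0.219). On the arrays of the second set it read 9.83, 9.70 and 9.59 with DMSO and 10.15, 10.05 and 9.97 with PHA+ICG, a difference of 0.35 (adjusted p = 0.374) with no overlap. A second Ubtf probe set read -0.06 with ICG and -0.15 with PHA+ICG. The mean of both gave 0.12 with ICG (adjusted p = 0.501). Rrn3, the factor that brings the polymerase to that promoter, is singled out here after its values were seen. It read 8.39, 8.61 and 8.53 with DMSO of the second set and 9.05, 9.47 and 8.91 with PHA+ICG, all above DMSO. The difference, 0.63 ± 0.19 or 1.55-fold, was the highest of the 34 members (adjusted p = 0.159, and 0.0445 with the block). Its differences with PHA and with ICG in the first set were 0.10 and 0.00. The catalytic subunits Polr1a and Polr1b and the shared subunit Polr1c had differences from -0.11 to 0.16 over the 3 treatments.

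Of the abundant nucleolar proteins, Nolc1 fell with both single inhibitors. Nolc1, a chaperone of snoRNPs, read 9.51, 9.48 and 9.36 with DMSO, 9.13, 9.12 and 9.13 with PHA and 9.07, 9.02 and 9.12 with ICG. Every treated array was below every DMSO array. It fell by 0.33 ± 0.06 with PHA (adjusted p = 0.00894) and by 0.38 ± 0.06 with ICG (adjusted p = 0.00135). The mean of its 3 probe sets gave -0.14 and -0.11, with no call (adjusted p = 0.322 and 0.342). Nolc1 in the second set read 9.35, 9.25 and 9.39 with DMSO and 9.54, 8.42 and 9.15 with PHA+ICG. Here replicate 2 was far below the others, and the groups overlapped.

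Ddx21, an RNA helicase that links polymerase I to early processing, rose with ICG. Its level was 9.33, 9.13 and 9.13 with DMSO, 9.08, 9.04 and 8.90 with PHA and 9.51, 9.62 and 9.41 with ICG. The groups were apart, with PHA lowest. It rose with ICG by 0.32 ± 0.08 (adjusted p = 0.0203), a call lost without DMSO replicate 2 or 3 or ICG replicate 2 (adjusted p up to 0.0739), and the difference with PHA was -0.19 (adjusted p = 0.193). Values in the second set were 9.18, 8.78 and 8.99 with DMSO and 9.88, 9.05 and 9.73 with PHA+ICG, 0.57 higher on average, with PHA+ICG replicate 2 inside the DMSO range (adjusted p = 0.354). A second Ddx21 probe set read 0.13 with ICG and 0.18 with PHA+ICG, neither called (adjusted p = 0.414 and 0.909 when every probe set was tested).

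Ncl (nucleolin), an abundant RNA-binding protein of the nucleolus, fell with ICG. It read 11.86, 11.70 and 11.65 with DMSO, 11.82, 11.83 and 11.75 with PHA and 11.47, 11.44 and 11.45 with ICG. The ICG arrays lay together below the rest, while PHA and DMSO overlapped. The fall with ICG was 0.28 ± 0.07 on the log2 scale (adjusted p = 0.0107). In the second set it read 12.15, 12.70 and 12.73 with DMSO and 12.33, 12.10 and 12.74 with PHA+ICG, and the groups overlapped. Npm1 (nucleophosmin), a histone and ribosome chaperone, and Mybbp1a, a nucleolar partner of Myb, had differences from -0.18 to 0.12 with no call.

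Of the box C/D proteins, Fbl fell with PHA and Rrp9 rose with ICG. Fbl (fibrillarin), the methyltransferase of these particles, read 11.17, 11.17 and 11.12 with DMSO, 10.94, 10.94 and 10.97 with PHA and 11.21, 11.23 and 11.29 with ICG. PHA was below DMSO and ICG above it, without overlap. The fall with PHA was 0.21 ± 0.05 (adjusted p = 0.0419) and lost its call whichever array was left out (adjusted p from 0.0742 to 0.122), while the difference with ICG was 0.09 (adjusted p = 0.272). Fbl in the second set read 10.72, 10.95 and 11.10 with DMSO and 11.47, 10.25 and 11.12 with PHA+ICG, so that replicates 1 and 2 of the treated group were the highest and the lowest of the 6. A second Fbl probe set read -0.06 with PHA and 0.70 with PHA+ICG (adjusted p = 0.0792 for the latter when every probe set was tested). The mean of both gave -0.13 with PHA, with no call (adjusted p = 0.151). Rrp9, which binds the particle that guides early cleavage, read 8.75, 8.58 and 8.68 with DMSO, 8.71, 8.60 and 8.68 with PHA and 8.83, 8.92 and 9.02 with ICG. The ICG arrays were above the other 6. It rose by 0.25 ± 0.07 (adjusted p = 0.0281), a call lost without DMSO replicate 2 or 3 or ICG replicate 2 or 3 (adjusted p up to 0.103). The second set gave 8.35, 8.79 and 8.69 with DMSO and 9.03, 8.94 and 9.16 with PHA+ICG, a difference of 0.43 without overlap (adjusted p = 0.322). The scaffold proteins Nop56 and Nop58 had differences from -0.15 to 0.32 with no call.

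The 4 box H/ACA proteins, which sit in one particle and also in telomerase, did not move as a unit. Nop10, the smallest of them, rose with PHA and with ICG. It read 11.45, 11.21 and 11.22 with DMSO, 11.65, 11.87 and 11.75 with PHA and 11.78, 12.05 and 11.97 with ICG. Each treated array was above each DMSO array. The rise was 0.46 ± 0.10 with PHA (adjusted p = 0.0151) and 0.64 ± 0.10, or 1.56-fold, with ICG (adjusted p = 0.000887), the largest change of any member in these comparisons. A second Nop10 probe set read 0.50 and 0.70, both called (adjusted p = 0.0316 and 0.00183). Nop10 in the second set read 12.25, 11.90 and 11.92 with DMSO and 12.39, 12.88 and 12.37 with PHA+ICG, 0.53 higher and without overlap (adjusted p = 0.281).

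Dkc1 (dyskerin), the pseudouridine synthase of that particle, read 9.52, 9.54 and 9.45 with DMSO, 9.24, 9.14 and 9.16 with PHA and 9.43, 9.45 and 9.53 with ICG. PHA was below both other groups, which overlapped. It fell with PHA by 0.32 ± 0.06 (adjusted p = 0.00863), and no single array removed the call (adjusted p up to 0.0416). In the second set it read 9.44, 9.83 and 9.86 with DMSO and 10.12, 10.09 and 10.01 with PHA+ICG, 0.36 higher and without overlap (adjusted p = 0.421). Gar1, a core protein next to the active site, read 9.62, 9.48 and 9.51 with DMSO, 9.51, 9.42 and 9.38 with PHA and 9.73, 9.74 and 9.82 with ICG. The ICG arrays were above the other 6. It rose by 0.23 ± 0.07 with ICG (adjusted p = 0.0284), a call lost without any one of DMSO replicates 2 and 3 and ICG replicates 2 and 3 (adjusted p up to 0.0997). Gar1 in the second set read 9.54, 9.87 and 9.88 with DMSO and 10.05, 9.83 and 9.995 with PHA+ICG, which overlapped. Nhp2, the remaining core protein, read -0.16 with PHA and -0.19 with ICG (adjusted p = 0.155 and 0.0534).

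None of the 5 small subunit factors passed the test against DMSO under any of the 3 treatments (limma), and 1 of them, Nop14 with ICG, had an unadjusted p under 0.05. Nop14 and Utp20 belong to the complex that forms on the nascent transcript, Wdr43 joins it early, Rrp12 acts in late maturation and export, and Nat10 acetylates ribosomal RNA. Their differences ran from -0.18 to 0.09 with PHA, from -0.04 to 0.16 with ICG, and for the combination from -0.35 to 0.39. The lowest, Nop14 with PHA+ICG, followed 1 array. Nop14 read 9.02, 8.92 and 8.82 with DMSO and 9.03, 7.70 and 9.01 with PHA+ICG.

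Among the 10 large subunit factors 1 fell with PHA, Noc2l, and 1 with ICG, Nop2. Noc2l, a nucleolar protein that also restrains histone acetylation, read 8.83, 8.91 and 8.73 with DMSO, 8.51, 8.54 and 8.58 with PHA and 8.71, 8.63 and 8.71 with ICG. PHA lay lowest, and ICG lay just below DMSO. It fell with PHA by 0.28 ± 0.06 (adjusted p = 0.0227), a call lost without DMSO replicate 1 or 2 or PHA replicate 1 or 2 (adjusted p up to 0.0862). In the second set it read 8.28, 8.38 and 8.33 with DMSO and 7.97, 8.13 and 8.31 with PHA+ICG, with overlap. A second Noc2l probe set read -0.11 with PHA and 0.37 with PHA+ICG, neither called. Nop2, a ribosomal RNA methyltransferase, read 9.38, 9.40 and 9.36 with DMSO, 9.19, 9.23 and 9.23 with PHA and 9.15, 9.10 and 9.28 with ICG. Both treated groups were below DMSO. The fall with ICG was 0.20 ± 0.06 (adjusted p = 0.0362), a call lost without any one array but ICG replicate 3 (adjusted p up to 0.119), and the difference with PHA was -0.16 (adjusted p = 0.134). Nop2 in the second set read 8.89, 9.22 and 9.11 with DMSO and 9.19, 9.29 and 9.20 with PHA+ICG, with overlap. The complex of Pes1, Bop1 and Wdr12, which processes the precursor of the large subunit, had no call, with differences from -0.15 for Pes1 with PHA to 0.44 for Wdr12 with PHA+ICG. Gnl3 (nucleostemin) and Nop16, picked after their values were seen, were higher with PHA+ICG in all 3 arrays. Gnl3 read 10.77, 11.04 and 10.98 with DMSO and 11.34, 11.44 and 11.23 with PHA+ICG (difference 0.41, adjusted p = 0.293), and Nop16 read 8.74, 8.71 and 8.49 against 9.55, 8.85 and 9.08 (0.51, adjusted p = 0.33).

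**Figure D3:**
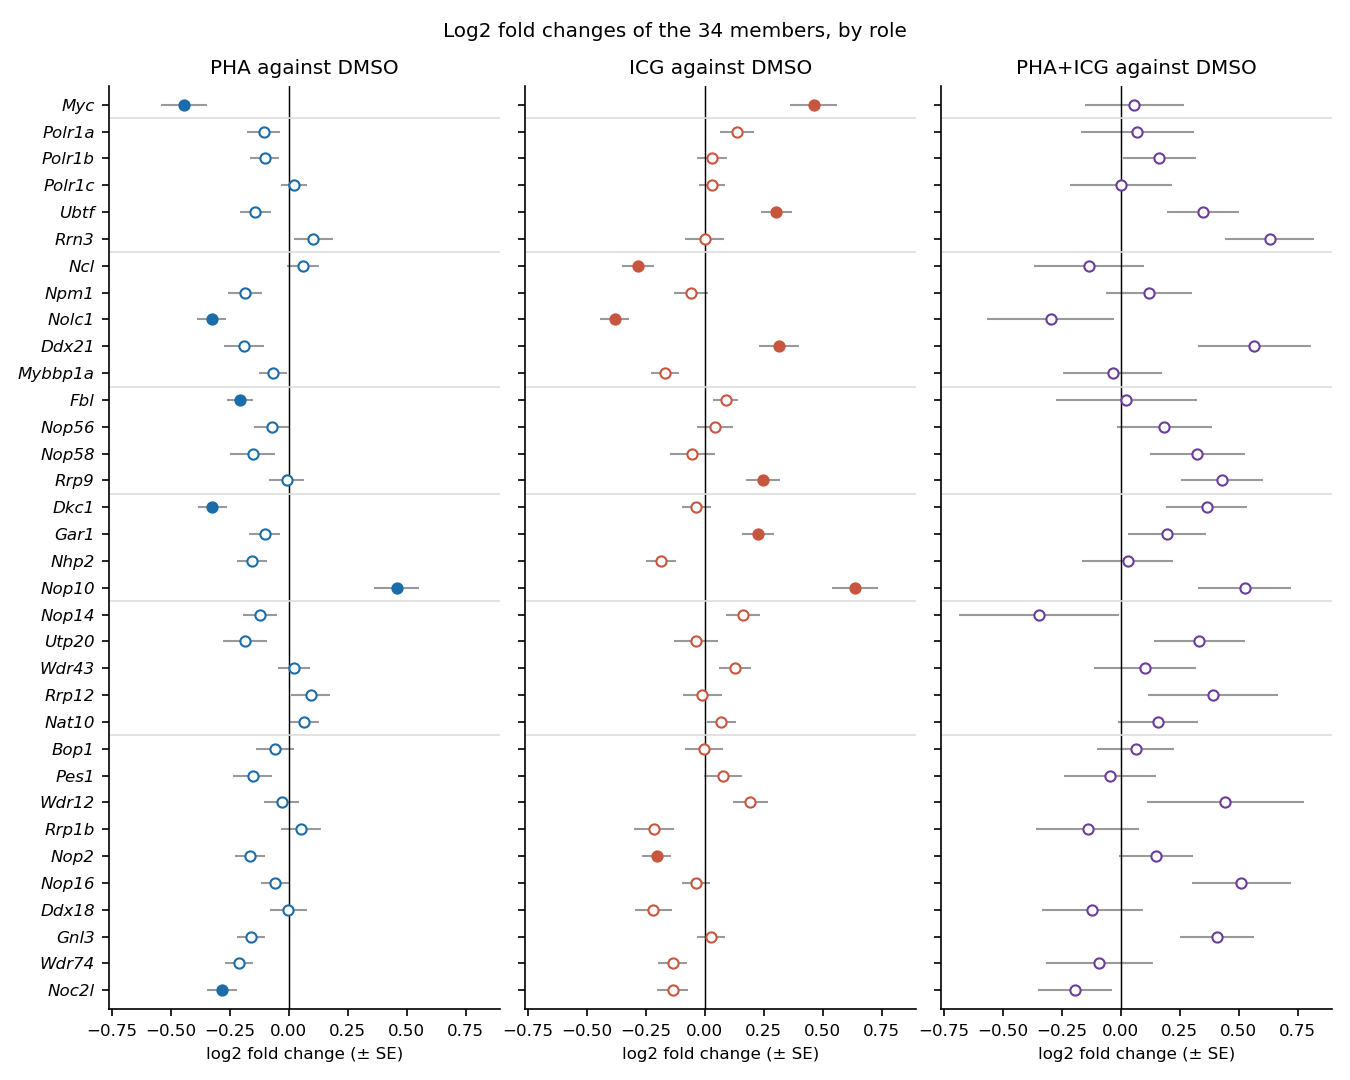
Log2 fold change of each of the 34 members against DMSO of its own set, for PHA, ICG and PHA+ICG, with bars of 1 SE to each side and filled points for members called at an adjusted p under 0.05. Nop10 is highest with PHA (0.46) and ICG (0.64), Myc is lowest with PHA (-0.44), and the bars with PHA+ICG are wider, with no filled point.

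Where a member had several probe sets, the others were compared with the one used. Of the 34 members 22 had more than 1, which gave 33 further probe sets. The sign was shared by 25 of the 33 with PHA, by 27 with ICG, and under the combination by 22. Of these 33, 1 was called with PHA and 8 with ICG, while under PHA+ICG 0 were, when every probe set was tested on its own. With ICG, 2 further Ncl probe sets fell, by 0.45 and 0.29, while another read -0.04. Some genes that were not called through their main probe set were called through another with ICG: Rrp1b (-0.41), Mybbp1a (-0.43), Nhp2 (-0.28), Pes1 (0.43) and Wdr43 (0.31).

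PHA and ICG were also set against each other on the 6 arrays that carry them, within the fit of the first set. Both this comparison and those above draw on the same PHA and ICG arrays. Of the 34 members 10 were lower with PHA than with ICG (Myc, Polr1a, Ubtf, Ddx21, Fbl, Rrp9, Dkc1, Gar1, Nop14 and Gnl3) and 2 were higher (Ncl and Rrp1b), in all 35.3%, beside 27.1% of all genes, 13.4% lower and 13.7% higher. Among genes with a mean of at least 6 the order was the other way, with 44.1% of the members (15 of 34) and 47.2% of the genes. Myc differed most, by -0.91 ± 0.10 (adjusted p = 0.000124), and was called in each of the alternatives tried, with values from -0.998 to -0.79 when single arrays were left out. Ddx21 followed with -0.51 (adjusted p = 0.00153) and Ubtf with -0.44 (adjusted p = 0.000763). Ncl was 0.34 higher with PHA (adjusted p = 0.00344). With the mean of each gene's probe sets the calls of Ubtf (-0.31, adjusted p = 0.0878), Ncl (0.15, adjusted p = 0.0732) and Polr1a (-0.08, adjusted p = 0.368) were lost. For Nop10 and Nolc1, which changed the same way with both inhibitors, the differences were -0.18 and 0.05 with no call (adjusted p = 0.211 and 0.582). Without ICG replicate 3 the members called lower numbered 6, and without PHA replicate 2 or 3 or ICG replicate 1 or 2 those called higher numbered 1.

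The effect of PHA+ICG in the second set was compared with each single effect in the first, in 1 fit of all 15 arrays with a weight per set. Against the effect of PHA, 29 of 34 members had a more positive effect of the combination, with a median of 0.24 against -0.03 over all genes, and 1 was called, Dkc1, beside 2.74% of all genes. Without PHA+ICG replicate 1 this median was 0.16, as it was without DMSO replicate 1 of the second set. For Dkc1 the effects were 0.36 and -0.32, and they differed by 0.69 ± 0.17 (adjusted p = 0.0429, and 0.04 with the replicate block). The call was lost when single arrays were left out, without DMSO replicate 1 or 2 or PHA replicate 2 or 3 of the first set and without any one of the 6 arrays of the second, with adjusted p up to 0.143. With the block Ddx21 was called as well (0.76, adjusted p = 0.0307), as it was without PHA+ICG replicate 2 (1.01, adjusted p = 0.023). Against the effect of ICG no member was called, beside 0.385% of all genes. There 5 members (14.7%) had an unadjusted p under 0.05, beside 7.07% of all genes, all with a more positive effect of PHA+ICG, led by Rrn3 (0.63, adjusted p = 0.392). Among genes with a mean of at least 6 it was 11.8% of the members beside 8.13% of the genes. The departure from the sum of the single effects was called for no member, beside 0.720% of all genes, with 5 members (14.7%) at an unadjusted p under 0.05, beside 9.31% of all genes. With a mean of at least 6 the shares at that p were close, 11.8% of the members and 10.6% of the genes. For Myc that departure was 0.04 ± 0.29 (adjusted p = 0.986). For Nop10 it was -0.57 ± 0.28 (adjusted p = 0.565), as Nop10 was 0.46 and 0.64 higher with the single inhibitors and 0.53 with both. The sets carry the treatments, so what differs between the sets besides treatment cannot be told apart from the difference between these effects.

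Other genes of the same pathway were counted beside the members. Of 35 further small subunit factors 2 fell with PHA, among them Heatr1 (-0.34, adjusted p = 0.00474), and with ICG 3 rose and 8 fell. Of 39 further large subunit factors 1 fell with PHA, the assembly ATPase Mdn1 (-0.43, adjusted p = 0.00303), and with ICG 5 rose, such as Gtpbp4 (0.52), and 13 fell, such as Brix1 (-0.52). Of 25 further subunits and factors of RNA polymerases I and III, 0 were called with PHA (limma; 7 at an unadjusted p under 0.05, as were 25.5% of all genes), and with ICG 3 rose and 4 fell, among them Polr1d (-0.57, adjusted p = 7.74e-05), a subunit that both polymerases share. Of 23 snoRNP assembly and RNA exosome genes 0 were called with PHA (4 at an unadjusted p under 0.05), and with ICG 2 rose and 5 fell, among them the box H/ACA assembly factor Naf1 (0.42) and the exosome subunit Exosc8 (-0.47). Cytosolic ribosomal proteins were measured for 44 of 79 written. With PHA 1 rose and 3 fell, and with ICG 2 rose and 17 fell, with a median of -0.12, such as Rpl19 (-0.44) and Rpl14 (-0.77). With PHA+ICG none of these 5 lists had a called gene (limma). There 12, 8, 6, 4 and 4 genes had an unadjusted p under 0.05, as did 13.3% of all genes. Of these, 10, 6, 5, 3 and 0 were higher than DMSO. In the same order, 5.71%, 2.56%, 0%, 0% and 9.09% were called with PHA, beside 10.2% of all genes. With ICG the shares were 31.4%, 46.2%, 28%, 30.4% and 43.2%, beside 26.9% of all genes. Among genes with a mean of at least 6, 20.7% were called with PHA and 45.5% with ICG.

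Genes that Myc is known to activate outside the nucleolus were measured for 30 of 35. With PHA 0 rose and 6 fell, among them Shmt2 (-0.39), Cdk4 (-0.37) and Prmt1 (-0.35). With ICG 4 rose and 11 fell, and Myc itself was higher. The serine pathway enzyme Shmt2 rose by 1.15 ± 0.08 (adjusted p = 1.3e-05), while spermidine synthase Srm fell by 0.73 and the cyclin-dependent kinase Cdk4 by 0.71. With PHA+ICG 0 of the 30 were called (limma), with 9 at an unadjusted p under 0.05, as were 13.3% of all genes. Of 15 genes that Myc is known to repress, 0 rose and 6 fell with PHA, where Myc was lower, among them Thbs1 (-0.90), Ndrg1 (-0.82) and Klf4 (-0.76). With ICG 7 rose, such as the stress-induced growth inhibitor Gadd45a (1.17) and the cell cycle inhibitor Cdkn2b (0.87), and 3 fell, such as Gas1 (-1.13). With PHA+ICG 1 rose, Hmox1 (0.99), and 2 fell, Thbs1 (-2.23) and Gas1 (-1.17). Of the activated genes 20%, 50% and 0% were called with PHA, ICG and PHA+ICG, and of the repressed genes 40%, 66.7% and 20%. Over all genes the shares were 10.2%, 26.9% and 2.02%, and with a mean of at least 6 they were 20.7%, 45.5% and 3.06%. Whether these changes follow Myc was not tested.

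**Figure D4:**
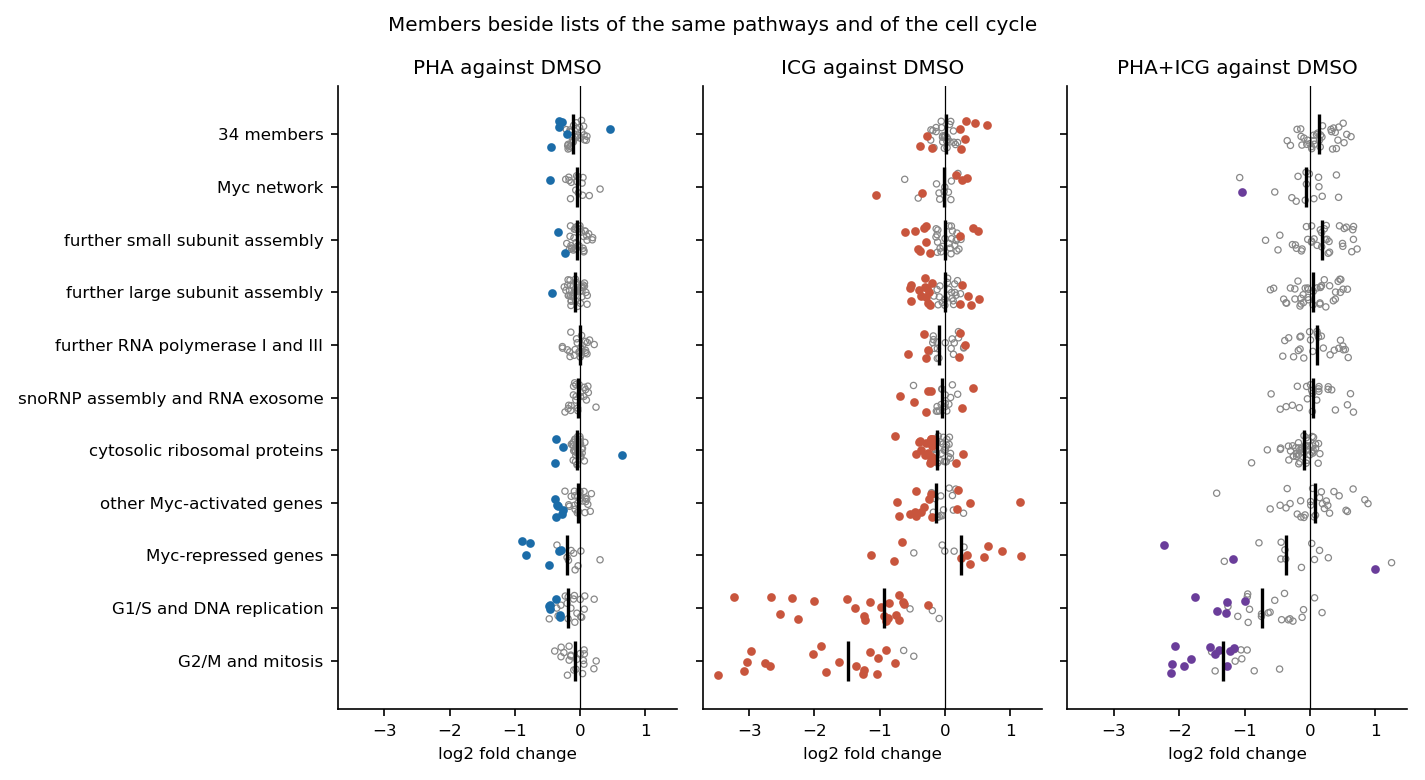
Log2 fold change of each gene (1 point per gene, spread vertically for clarity) among the members and each gene list, for PHA, ICG and PHA+ICG against DMSO of the same set, with filled points for genes called at an adjusted p under 0.05 and a black bar at the median of the list. With ICG the medians are 0.01 for the members, -0.93 for G1/S and -1.49 for G2/M, where 18 of 20 points are filled.

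Genes of the cell cycle and of other cell types changed on the same arrays. Over all genes 10.2%, 26.9% and 2.02% were called with PHA, ICG and PHA+ICG. Among genes with a mean of at least 6 these shares were 20.7%, 45.5% and 3.06%. Of 25 genes of G1/S and DNA replication 6 fell with PHA and 22 with ICG (median -0.93), and under PHA+ICG 5 fell. Of 20 genes of G2/M 0 were called with PHA (limma; 0 at an unadjusted p under 0.05), while ICG lowered 18 (median -1.49) and PHA+ICG 11. Of 12 fibroblast markers 7 fell with PHA and 10 with ICG, and under PHA+ICG 3 fell. Their summed level (log2) was 15.01 to 15.03 with PHA and 14.88 to 15.09 with ICG, below DMSO, and 16.28 to 16.51 with PHA+ICG. Of 12 leukocyte markers 4, 7 and 0 fell, with summed levels of 14.52 to 14.79 with DMSO of the first set, 14.33 to 14.49 with PHA, 14.28 to 14.34 with ICG, 11.24 to 13.55 with DMSO of the second set and 10.33 to 12.79 with PHA+ICG. Of 8 mast cell and basophil markers 7, 6 and 2 fell, with 12.51 to 12.64, 11.75 to 11.94 and 12.01 to 12.20 in the first set and 12.54 to 13.28 and 11.58 to 11.85 in the second. Of 10 luminal markers 3 rose with PHA and 3 with ICG, where 2 fell, and of 10 basal markers 5 fell with PHA, while with ICG 1 rose and 3 fell. Of 10 endothelial and 6 adipocyte markers, 3 and 1 were called with PHA, 2 and 3 with ICG, and under PHA+ICG 0 and 1. The luminal, basal, endothelial and adipocyte shares called were 30%, 50%, 30% and 16.7% with PHA. With ICG they were 50%, 40%, 20% and 50%, near or below the 45.5% of genes with a mean of at least 6. The signal of an array has no true 0, so no marker can be given as absent. The difference between the 3′ and 5′ probe sets of Actb, a sign of RNA quality, was 0.45 ± 0.12 (SD, n = 3) with DMSO of the first set, 0.54 ± 0.06 with PHA and 0.63 ± 0.07 with ICG. In the second set it was 0.59 ± 0.11 with DMSO and 0.59 ± 0.16 with PHA+ICG. Replicate 1 of these groups read 0.71 and 0.78, the highest values of the 15 arrays. The part of cell composition, proliferation and RNA quality in the changes of the members was not tested.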

How the data were processed

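The values of 45101 probe sets on 15 arrays were used as deposited, on the log2 scale; per the submitters' processing notes the authors used RMA and MAS5, with no versions or roles given, and whether both sets were normalized together is not given in the sources used here. Probe sets with 1 symbol in the platform annotation (34945) gave 18193 genes, each read through its probe set with the highest mean; controls (64) and probe sets with several symbols (932) were left out. Models were fitted with limma 3.58.1 in R 4.3.3: the first set on 9 arrays, the second on 6, and comparisons across sets on all 15 with 1 weight per set (2.03 and 0.345). Calls are at a Benjamini-Hochberg adjusted p under 0.05 over all genes. The scripts were tested on simulated data. The number of arrays limits the precision.

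Same-numbered arrays correlated, as deviations from the group means, at 0.61, 0.36 and 0.28 in the second set. The fits reported hold no block, so they do not pair these arrays. An alternative fit took the replicate number as a block, and the calls of members that it changed are given. In the second set arrays with unlike numbers ran from -0.51 to 0.35. DMSO replicate 3 correlated at 0.35 with PHA+ICG replicate 2 and at 0.28 with its own number, so the pairing of replicates 2 and 3 is not shown. What same-numbered arrays have in common is not in the labels. In the first set these correlations ran from -0.26 to 0.12.

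The members and lists were chosen with earlier results of these data known. Values in every array are given for Myc and, in each role class, for up to 4 members called in a comparison with DMSO; of each list up to 3 called genes with the largest changes could be named. Alternatives tried were the arrays and weights in the fit, scaling, a filter at a mean of 6, the choice of probe sets, the block and leaving out each array.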

Additional observations from a re-analysis of the deposited data

Results flagged for a closer look

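Dkc1 was picked out because its response to PHA+ICG differed from its response to PHA by a test of the difference itself. The effect of PHA+ICG minus the effect of PHA was 0.69 ± 0.17 on the log2 scale (limma on 15 arrays with 1 weight per set, adjusted p = 0.0429). All 3 PHA arrays were below their DMSO and all 3 PHA+ICG arrays above theirs. The adjusted p lay between 0.0202 and 0.143 over the alternatives tried and rose above 0.05 in 10 of the 12 fits that left out 1 array. Each treatment belongs to its own set of arrays.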

How the results depend on the processing

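Over the alternatives tried for the 34 members, 0 of the 439 values called there or in the fit reported had the opposite direction. This count is no test of the directions. The pooled spread, the weights, the filter, testing every probe set and the block leave the fold change as it was. The fits that left out 1 array reused the others. Fitting all 15 arrays with a pooled spread and no weights gave 182 genes called with PHA, 0 members higher and 0 lower; with ICG 1255 genes, 1 member higher (Nop10) and 0 lower; with PHA+ICG 2413 genes and 8 members higher; and for PHA minus ICG 1463 genes, 0 members higher and 2 lower. With 1 weight per set 641 genes were called with PHA+ICG. Without weights the effect of PHA+ICG differed from that of ICG for 160 genes and from that of PHA for 860 genes and 2 members, and from the sum of both for 78 genes. Quantile normalization gave 765 genes and 4 members against PHA, and a split of 134 higher and 249 lower genes with PHA+ICG, beside 87 and 281. A mean of at least 6 gave 2306 of 11126 genes with PHA, 6 members lower with ICG, 29 genes against ICG and 76 for the departure from the sum. The mean of a gene's probe sets gave 5 members lower with ICG, 1 higher for PHA minus ICG and 2 against PHA. Testing every probe set gave 3 members lower with PHA, 7451 probe sets with ICG, 563 with PHA+ICG, 7803 and 1 member higher for PHA minus ICG, 130 against ICG, 848 against PHA and 198 for the departure.

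With the replicate block 1202 genes and 3 members lower were called with PHA, 1442 genes and 1 member higher with PHA+ICG, 1 member higher for PHA minus ICG, 197 genes against ICG, 958 genes and 2 members against PHA, and 284 for the departure. With ICG 4149 genes, 5 members higher and 2 lower were called. Fbl and Noc2l lost their calls with PHA (limma, adjusted p = 0.102 and 0.0634). Gar1 and Nop2 lost theirs with ICG (adjusted p = 0.0531 and 0.0716), and Polr1a, Gnl3 and Rrp1b lost theirs for PHA minus ICG. What same-numbered arrays of the first set share is not known. An array there correlated best with its own number in 5 of 18 cases, 1 for each array and other group.

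Leaving out 1 array at a time gave 1005 to 1691 genes with PHA (fewest without PHA replicate 2), 0 to 1 members higher and 2 to 4 lower; with ICG 3696 to 4756 genes, 3 to 7 members higher and 2 to 4 lower; with PHA+ICG 56 to 389 genes (fewest without DMSO replicate 3) and 0 members. For PHA minus ICG there were 3922 to 4399 genes, 1 to 2 members higher and 6 to 10 lower. Across the sets there were 1 to 144 genes against ICG, 149 to 719 genes and 0 to 3 members against PHA, and 35 to 177 genes for the departure. The median of the members ran from -0.14 to -0.07 with PHA, from -0.02 to 0.06 with ICG, from 0.06 to 0.22 for PHA+ICG, from 0.033 to 0.239 for PHA+ICG in comparison with ICG, from 0.16 to 0.34 in comparison with PHA, and from 0.12 to 0.30 for the departure. The causes were not tested. The spread of the second set limits what could be called there.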
